A study of Homo sapiens with 4 samples.

Results

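Aldo-keto reductases are soluble enzymes that use NADPH to reduce aldehydes and ketones to alcohols. The AKR1C branch acts on the ketone groups of steroid hormones and prostaglandins, the AKR1A and AKR1B branches on sugars and short aldehydes, and the AKR7A branch on dialdehydes and succinic semialdehyde. Several members are known targets of NRF2, the transcription factor of the oxidative stress response. The 10 genes AKR1C1, AKR1C2, AKR1C3, AKR1C4, AKR1A1, AKR1B1, AKR1B10, AKR1D1, AKR7A2 and AKR7A3 were taken by symbol from the 28103 rows of the count table. They were picked around the difference of the AKR1C genes between the knockdown and control libraries, so that difference is given below as a description and is not tested here; where members are counted as called by the fit over all genes, the count describes the choice and supports nothing.

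The libraries were made from poly(A) RNA of HEL, a human erythroleukaemia line. The AFF4_KD group carried a knockdown of AFF4, a scaffold of the super elongation complex that helps paused RNA polymerase II into elongation, and the Ctrl group had the wild-type genotype in the labels. Each group had 2 libraries. The sources used here do not say how AFF4 was knocked down, whether clones or pools were used, or whether replicates were separate cultures. SDs and p-values therefore describe the spread among these 4 libraries, and that spread may be purely technical.

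Total counts were 17955867 and 16643610 in the AFF4_KD libraries and 19129008 and 14903878 in the Ctrl libraries. AFF4 itself had 18.7 and 18.9 CPM in the AFF4_KD libraries, against 88.3 and 69.2 CPM in the Ctrl libraries (CPM, the counts scaled to library size by the TMM method). The 13 erythroid markers, among them GATA1, KLF1 and the globins, and the 6 megakaryocyte markers were all tested. The erythroid markers summed to 9638 to 9772 CPM in AFF4_KD and 12815 to 14915 CPM in Ctrl, and the fetal globins carried this difference. HBG1 averaged 2292 CPM in AFF4_KD and 4165 CPM in Ctrl and was called lower, and HBG2 averaged 4091 CPM in AFF4_KD and 6556 CPM in Ctrl. These genes were named after their values were seen, as were those that follow. Over the list, 7 of 13 log2 fold changes were positive with a median of 0.01, and 3 genes, GYPB, TFRC and EPOR, were higher before adjustment at 0.05. The part of these differences in the results below was not tested. The megakaryocyte markers summed to 1343 to 1470 CPM in AFF4_KD and 1211 to 2034 CPM in Ctrl. Most of this sum was ITGA2B, at 1030 and 1145 CPM in AFF4_KD and 881 and 1545 CPM in Ctrl. Over the list, 1 of 6 log2 fold changes was positive and 5 were negative, with a median of -0.43. By edgeR 0 were called, and 1, PF4, was lower before adjustment at 0.05 (log2 fold change -1.01 ± 0.23 SE). Of the 10 hepatocyte markers, 5 including APOB and HNF4A were at 0 in all 4 libraries, and their summed level was 0.387 to 0.416 CPM in AFF4_KD and 0.134 to 0.428 CPM in Ctrl. Fibroblast markers summed to at most 0.238 CPM in AFF4_KD and 0.402 CPM in Ctrl, intestinal and epithelial markers to 43.8 to 44.4 CPM in AFF4_KD and 51.8 to 66.6 CPM in Ctrl, and lymphoid and monocyte markers to 53.3 to 56.4 CPM in AFF4_KD and 57.9 to 62.4 CPM in Ctrl. The Ctrl libraries differed from each other far more than the AFF4_KD libraries did, with a chi-square per degree of freedom of 44.0 between the Ctrl libraries and 2.50 between the AFF4_KD libraries. The Ctrl difference moved with base composition. The median log2 difference, Ctrl 2 minus Ctrl 1, was -0.40 in the GC-poorest of 5 equal bins of genes and 0.67 in the GC-richest, where the AFF4_KD libraries differed by -0.05 and 0.11.

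The AKR1C genes lie together on chromosome 10 in hg38, within 255697 bases. AKR1C1 spans 4963253 to 4983283 on the plus strand, AKR1C2 4987400 to 5018031 on the minus strand, AKR1C3 5035354 to 5107686 on the plus strand and AKR1C4 5195462 to 5218949 on the plus strand. Each encodes 323 amino acids from 972 coding bases, stop codon included. Their sequences are shown first because the similarity of the genes bears on how reads were divided among them. The coding sequences of AKR1C1 and AKR1C2 differed at 19 of 972 bases, whereas AKR1C3 and AKR1C4 were 91.5% and 88.5% identical to AKR1C1. The next 4 lines give the 60-base coding stretch in which AKR1C1 and AKR1C2 differ most, bases 103 to 162 counted from the A of the start codon, read from the GENCODE transcripts. It lies within a single coding exon of each gene, for AKR1C1 at chr10:4965932-4965991 and for AKR1C2 at chr10:5001604-5001663 (minus strand), for AKR1C3 at chr10:5096428-5096487 and for AKR1C4 at chr10:5200199-5200258. Capitals mark positions at which at least 1 of the 4 genes differs from AKR1C1.
AKR1C1: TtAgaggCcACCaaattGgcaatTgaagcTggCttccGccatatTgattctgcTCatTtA
AKR1C2: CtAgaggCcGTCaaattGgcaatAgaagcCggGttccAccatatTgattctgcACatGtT
AKR1C3: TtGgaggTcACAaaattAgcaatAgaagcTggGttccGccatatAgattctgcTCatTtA
AKR1C4: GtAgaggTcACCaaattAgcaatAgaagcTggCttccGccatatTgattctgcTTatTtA

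In this stretch AKR1C2 differed from AKR1C1 at 10 bases, so a read that falls here can be told apart. Elsewhere it often cannot. Of all 50-base windows of the AKR1C1 reference transcript, 28.7% occurred exactly in a transcript of another gene, nearly all in AKR1C2. The share was 52.2% for AKR1C2, 12.1% for AKR1C3 and 11.9% for AKR1C4. With 100-base windows these shares were 17.4%, 32.9%, 4.98% and 0.456%. The shares depend on the transcript taken, the longest principal one of each gene. It had 6705 bases for AKR1C1 and 3756 for AKR1C2, with 972 coding bases in each. Shares over shorter transcripts or over the coding bases alone were not computed. Outside the cluster, AKR7A3 shared 23.3% of its 50-base windows, chiefly with AKR7L, AKR1B10 17.7%, chiefly with AKR1B15, AKR1B1 4.78%, AKR1D1 0.696% and AKR1A1 0%. AKR7A2 shared 105 of its 1313 windows, with AKR7L and AKR7A3. How reads that map to several places were treated, and how long the reads were, is not stated in the sources, so the division of counts between AKR1C1 and AKR1C2 is uncertain, and their sum is less so.

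The similarity extended to the promoters, whose sequences are shown next. AKR1C1 and AKR1C2 also had nearly the same difference between the groups. Whether their promoters or the reads they share have a part in this was not tested. The windows reach from 250 bases before to 50 bases after the transcription start and come from RefSeq (GRCh38.p14). They are AKR1C1 at chr10:4963165-4963464 (plus strand), AKR1C2 at chr10:5003808-5004107 (minus strand) and, of the 2 windows listed for AKR1C3, the one nearer its coding start, chr10:5094164-5094463 (plus strand). Capitals in AKR1C1 and AKR1C2 mark bases that differ or are missing between these genes.
AKR1C1: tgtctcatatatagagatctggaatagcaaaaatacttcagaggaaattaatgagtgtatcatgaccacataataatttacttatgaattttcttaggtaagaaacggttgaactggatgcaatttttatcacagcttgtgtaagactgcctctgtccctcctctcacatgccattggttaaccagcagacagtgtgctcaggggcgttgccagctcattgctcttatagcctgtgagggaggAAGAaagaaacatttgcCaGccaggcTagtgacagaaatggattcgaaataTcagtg
AKR1C2: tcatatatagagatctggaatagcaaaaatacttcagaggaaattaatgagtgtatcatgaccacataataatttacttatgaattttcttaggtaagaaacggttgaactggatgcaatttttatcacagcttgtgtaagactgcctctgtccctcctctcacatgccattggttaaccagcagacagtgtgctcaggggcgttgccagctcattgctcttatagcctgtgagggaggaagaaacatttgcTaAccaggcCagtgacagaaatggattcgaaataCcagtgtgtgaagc
AKR1C3: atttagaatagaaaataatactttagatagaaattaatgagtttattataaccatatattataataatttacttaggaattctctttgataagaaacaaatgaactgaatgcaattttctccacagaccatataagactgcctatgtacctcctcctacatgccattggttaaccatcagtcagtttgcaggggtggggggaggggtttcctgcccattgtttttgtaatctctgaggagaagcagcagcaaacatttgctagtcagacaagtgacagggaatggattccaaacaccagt

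The AKR1C1 and AKR1C2 windows were identical in 97.3% of 296 aligned positions, with 4 differing and 4 missing bases. The AKR1C3 windows were identical to AKR1C1 in 74.7% and 75.0% of positions and the AKR1C4 window in 59.2%. Each window was searched on both strands for the core of the antioxidant response element bound by NRF2 (TGACNNNGC), for the AP-1 motif (TGANTCA), for the letters bound by erythroid GATA factors (AGATAA) and for those of the TATA box (TATAAA). These letters occur in 13.3%, 7.71%, 10.3% and 11.5% of 35116 promoter windows of the same length. The windows of AKR1C1 and AKR1C2 held 0 matches. The upstream AKR1C3 window held the GATA letters 201 bases before the start. It held the TATA box letters 26 bases before the start only on the opposite strand, where they read TTTATA along the gene. The AKR1C4 window held the TATA box letters 29 bases before the start on the gene's own strand. The antioxidant response letters matched in AKR7A2 only among the members, at 3 places. Sequence outside these windows was not searched. Since most promoter windows lack each set of letters, 0 matches in a window say little. A window was listed for every member except AKR1B10.

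AKR1C1, AKR1C2 and AKR1C3 were about 3- to 4-fold higher in the AFF4_KD libraries, AKR1C4 about 2-fold higher at a level near the detection limit, and the detected members outside the cluster had log2 fold changes between -0.42 and 0.27. AKR1C1, which inactivates progesterone by reducing its side-chain ketone, had 240 and 204 counts in the AFF4_KD libraries, against 59 and 42 counts in the Ctrl libraries. This was 13.3 and 12.1 CPM in AFF4_KD, against 3.16 and 2.81 CPM in Ctrl. Both AFF4_KD libraries lay above both Ctrl libraries, and the lower AFF4_KD value was 3.84 times the higher Ctrl value. On the log2 scale the fold change was 2.08 ± 0.22 (SE from edgeR's quasi-likelihood fit, n = 2 each). In bulk RNA, a larger share of cells with the transcript and more transcript per cell cannot be told apart.

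AKR1C2, a reductase that inactivates dihydrotestosterone, was the least abundant of the 3. It had 101 and 111 counts in AFF4_KD, against 32 and 17 counts in Ctrl, or 5.58 and 6.59 CPM against 1.71 and 1.14 CPM. The groups did not overlap, and the Ctrl libraries differed by 0.58 on the log2 scale (Ctrl 2 minus Ctrl 1 was -0.58). The log2 fold change was 2.07 ± 0.29 (SE). With 1 library left out it ranged from 1.82 without Ctrl 2 to 2.41 without Ctrl 1.

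AKR1C3, which forms testosterone from androstenedione and a prostaglandin F from prostaglandin D, was the most abundant of the AKR1C genes in every library. It had 409 and 363 counts in AFF4_KD, against 142 and 102 counts in Ctrl. On the CPM scale this was 22.6 and 21.6 in AFF4_KD, against 7.60 and 6.83 in Ctrl, again with no overlap and with each group's libraries close together. The log2 fold change was 1.61 ± 0.19 (SE).

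AKR1C4, an enzyme of steroid and bile acid metabolism found mainly in liver, had 17 and 17 counts in AFF4_KD, against 8 and 8 counts in Ctrl. These were 0.940 and 1.01 CPM in AFF4_KD, against 0.428 and 0.536 CPM in Ctrl, with a log2 fold change of 1.02 ± 0.38 (SE). Whether reads shared with the other AKR1C genes contribute to this count was not tested. Only the AFF4_KD libraries carried AKR1C4 past the filter on low counts, set at 0.578 CPM.

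**Figure D1:**
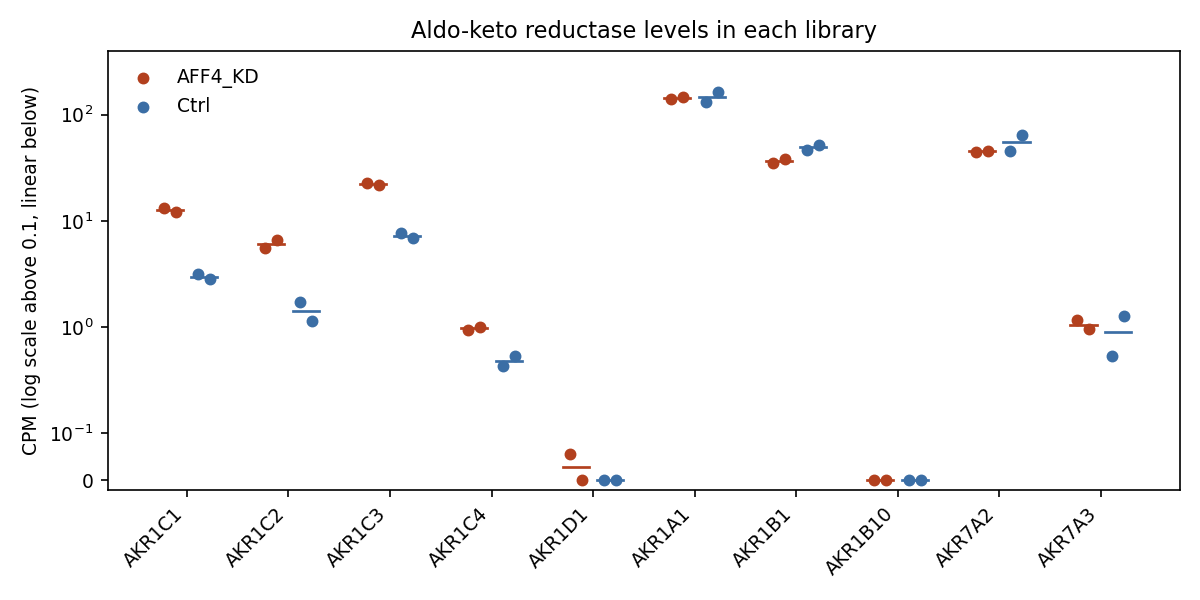
CPM of the 10 aldo-keto reductases in each library (y axis, logarithmic above 0.1 and linear below), with AFF4_KD left of Ctrl for each gene; points are libraries and bars are means of 2. The AKR1C1, AKR1C2, AKR1C3 and AKR1C4 points of AFF4_KD lie above those of Ctrl, while AKR1A1 and AKR7A3 overlap between the groups.

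Summed over the 4 genes, AKR1C counts were 767 and 695 in AFF4_KD, against 241 and 169 in Ctrl. A sum depends less on how reads were divided within the cluster, but reads with several matches may be missing from it or counted more than once. The sum was 41.8 ± 0.788 CPM in AFF4_KD and 12.1 ± 1.12 CPM in Ctrl (SD, n = 2 each). When the 4 genes entered the fit as a single row, its log2 fold change was 1.79 ± 0.18 (SE). The AKR1C genes held a share of the counts of the 10 members that was 15.1% or more in the AFF4_KD libraries, against 5.42% and 3.86% in the Ctrl libraries. The total over all 10 members was 269.2 ± 5.95 CPM in AFF4_KD and 265.4 ± 38.6 CPM in Ctrl, a difference smaller than the spread of the Ctrl libraries.

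**Figure D2:**
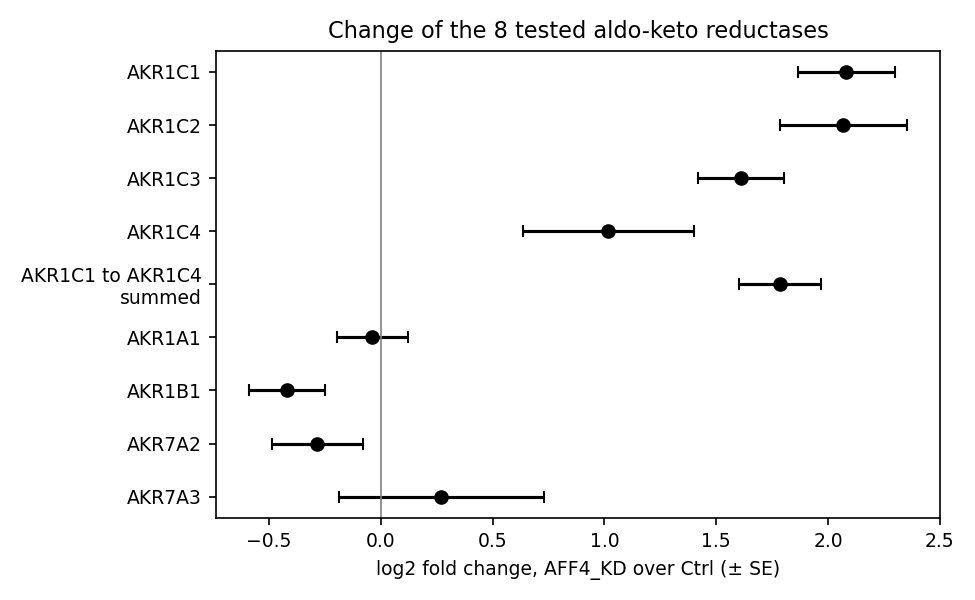
Log2 fold change of AFF4_KD over Ctrl with its standard error (x axis) for the 8 members that entered the fit and for the AKR1C counts summed into a single row. The AKR1C values lie between 1.02 and 2.08 and the other members between -0.42 and 0.27.

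The split of counts within the cluster was compared next. AKR1C1 held 31.3% and 29.4% of AKR1C counts in AFF4_KD, against 24.5% and 24.9% in Ctrl. AKR1C3 held 53.3% and 52.2% in AFF4_KD, against 58.9% and 60.4% in Ctrl. The 95% Wilson intervals, which cover counting error only, ran for AKR1C3 from 49.8% to 56.8% and from 48.5% to 55.9% in AFF4_KD, against 52.6% to 64.9% and 52.8% to 67.4% in Ctrl, so they overlapped between the groups. Those of AKR1C1 overlapped too. Intervals of single libraries do not compare the groups. Both AFF4_KD shares lay above both Ctrl shares for AKR1C1 and below both for AKR1C3, and this difference in the split was not tested. AKR1C2 held 101 of 767 and 111 of 695 counts in AFF4_KD, against 32 of 241 and 17 of 169 counts in Ctrl, and AKR1C4 held 2.22% and 2.45% in AFF4_KD, against 3.32% and 4.73% in Ctrl.

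**Figure D3:**
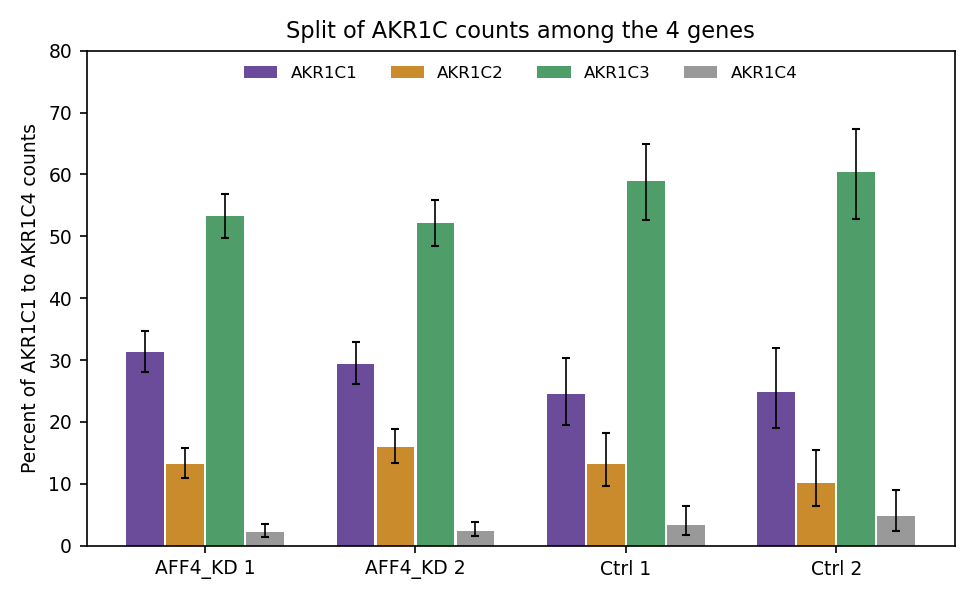
Percent of the AKR1C1 to AKR1C4 counts taken by each gene (y axis) in the 2 AFF4_KD libraries and the 2 Ctrl libraries; error bars are 95% Wilson intervals. AKR1C3 holds the largest share in all 4 libraries, 53.3% and 52.2% in AFF4_KD and 58.9% and 60.4% in Ctrl.

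AKR1D1, the reductase that acts on the double bond of steroid hormones and bile acid precursors, was hardly seen. It had 1 and 0 counts in AFF4_KD and 0 and 0 in Ctrl. AKR1B10, a retinaldehyde reductase of the intestine, had 0 counts in every library. A count of 0 allows up to 0.161 to 0.201 CPM at these depths (3 counts), so lower levels were not detectable. Neither gene entered the fit.

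AKR1A1, the aldehyde reductase that also reduces glucuronate, was the most abundant member. It had 141.7 and 147.1 CPM in AFF4_KD, against 132.1 and 164.3 CPM in Ctrl. The AFF4_KD values lay between the Ctrl values, and the log2 fold change was -0.04 ± 0.16 (SE).

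AKR1B1, the aldose reductase that turns glucose into sorbitol, had 34.9 and 38.5 CPM in AFF4_KD, against 46.6 and 51.7 CPM in Ctrl. The AFF4_KD libraries were lower without overlap, by a log2 fold change of -0.42 ± 0.17 (SE). SORD, the dehydrogenase that takes sorbitol on to fructose, was at 99.8 ± 1.43 CPM in AFF4_KD and 74.0 ± 0.194 CPM in Ctrl (SD, n = 2 each; log2 fold change 0.43 ± 0.14, edgeR adjusted p = 0.226).

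The AKR7A genes sit side by side on chromosome 1 in hg38, AKR7A2 from 19303965 to 19312146 and AKR7A3 from 19282558 to 19289250, both on the minus strand, and their coding sequences were 91.5% identical. AKR7A2, which reduces succinic semialdehyde, had 44.8 and 45.6 CPM in AFF4_KD, against 45.9 and 64.2 CPM in Ctrl. The AFF4_KD values were just below Ctrl 1 and well below Ctrl 2, and the log2 fold change of -0.28 ± 0.20 (SE) was -0.50 without Ctrl 1 and -0.03 without Ctrl 2. AKR7A3, which reduces the dialdehyde of aflatoxin, had 1.16 and 0.950 CPM in AFF4_KD, against 0.535 and 1.27 CPM in Ctrl. Its groups overlapped, and its log2 fold change of 0.27 ± 0.46 (SE) was -0.26 without Ctrl 1 and 0.97 without Ctrl 2.

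The difference between the Ctrl libraries was set beside the members' base composition. The reference transcripts of AKR1A1, AKR1B1 and AKR7A2 had GC contents of 56.7%, 53.4% and 61.1%, and Ctrl 2 exceeded Ctrl 1 by 0.31, 0.15 and 0.48 on the log2 scale. Those of AKR1C1, AKR1C2 and AKR1C3 had 42.4%, 40.2% and 41.2%, and Ctrl 2 minus Ctrl 1 was -0.17, -0.58 and -0.15. AKR1C4, at 44.3% GC and 8 counts in each Ctrl library, had the opposite sign to the other AKR1C genes at 0.30, and AKR7A3, at 61.1% GC, had 1.20. After the trend with GC content was taken out of each library, a step chosen after the data were seen, the log2 fold changes were 2.11 ± 0.14 for AKR1C1, 2.11 ± 0.21 for AKR1C2, 1.64 ± 0.11 for AKR1C3, 1.03 ± 0.37 for AKR1C4, -0.03 ± 0.05 for AKR1A1, -0.43 ± 0.07 for AKR1B1, -0.26 ± 0.08 for AKR7A2 and 0.30 ± 0.35 for AKR7A3 (SE). The step mainly evens out the 2 Ctrl libraries, whose mean enters these values. Whether base composition has a part in the differences of the AKR1C genes was not tested.

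Since the 10 genes have coding sequences of similar length, their levels were ranked per kilobase of coding sequence. AKR1A1 led with 144.9 and 150.4 CPM per coding kb in AFF4_KD, against 135.1 and 168.0 in Ctrl. AKR7A2 followed at 41.5 and 42.2 in AFF4_KD, against 42.5 and 59.4 in Ctrl, and AKR1B1 stood at 36.7 and 40.5 in AFF4_KD, against 49.0 and 54.3 in Ctrl. The ranges of AKR7A2 and AKR1B1 overlapped in Ctrl. AKR1C3 came next at 23.3 and 22.2 in AFF4_KD, against 7.82 and 7.03 in Ctrl, then AKR1C1 at 13.6 and 12.5 in AFF4_KD, against 3.25 and 2.89 in Ctrl, and AKR1C2 at 5.74 and 6.78 in AFF4_KD, against 1.76 and 1.17 in Ctrl. AKR7A3 and AKR1C4 overlapped at the bottom of the detected members in AFF4_KD (0.954 to 1.17 for AKR7A3 and 0.967 to 1.04 for AKR1C4). Per kilobase of the full reference transcript, AKR1C1 averaged only 1.89 CPM in AFF4_KD and 0.445 CPM in Ctrl and lay near AKR1C2 (1.62 in AFF4_KD and 0.380 in Ctrl), because the annotation gives AKR1C1 a transcript of 6705 bases and AKR1C2 one of 3756 bases.

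Of the 10 members, 8 passed the filter on low counts, and 3 of these, AKR1C1, AKR1C2 and AKR1C3, were called higher at an edgeR adjusted p under 0.05, against 0.346% of all 13572 tested genes called higher. None was called lower by edgeR, DESeq2 or limma-voom with all 4 libraries and no GC correction (1, AKR1B1, by edgeR before adjustment at 0.05). By edgeR 0.295% of all tested genes were called lower and 0.641% in either direction. The AFF4_KD libraries were above both Ctrl libraries in 4 members, against 23.1% of tested genes, and below both in 2 members, against 23.0%. Because the members were chosen on this contrast, these counts support nothing further. The count of 87 called genes in all was 46 without AFF4_KD 1, 51 without AFF4_KD 2, 6119 without Ctrl 1 and 6722 without Ctrl 2, while the members called higher numbered 2 without AFF4_KD 1, where AKR1C3 was not called, and 3 in each of the other 3 cases. With a stricter filter of at least 5 CPM in 2 libraries, 0 members and 5 genes in all were called.

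Of 16 protein-coding neighbours within 1 Mb on either side, 10 entered the fit and 0 passed (by edgeR, with 0 higher and 2 lower before adjustment at 0.05; DESeq2 called 0 and limma-voom 0). AKR1E2, an aldo-keto reductase 115191 bases to the left of AKR1C1, had 0 counts in all libraries. AKR1C8P, a row of the family that lies between AKR1C3 and AKR1C4, had 9 and 8 counts in AFF4_KD, against 13 and 5 counts in Ctrl, and was not tested. The nearest tested gene on the right was TUBAL3, an alpha-tubulin-like gene, at 30.1 ± 1.37 CPM in AFF4_KD and 23.7 ± 2.60 CPM in Ctrl (SD, n = 2 each). Its log2 fold change was 0.34 ± 0.18 (SE; adjusted p by edgeR = 0.449). No neighbour on the left entered the fit.

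**Figure D4:**
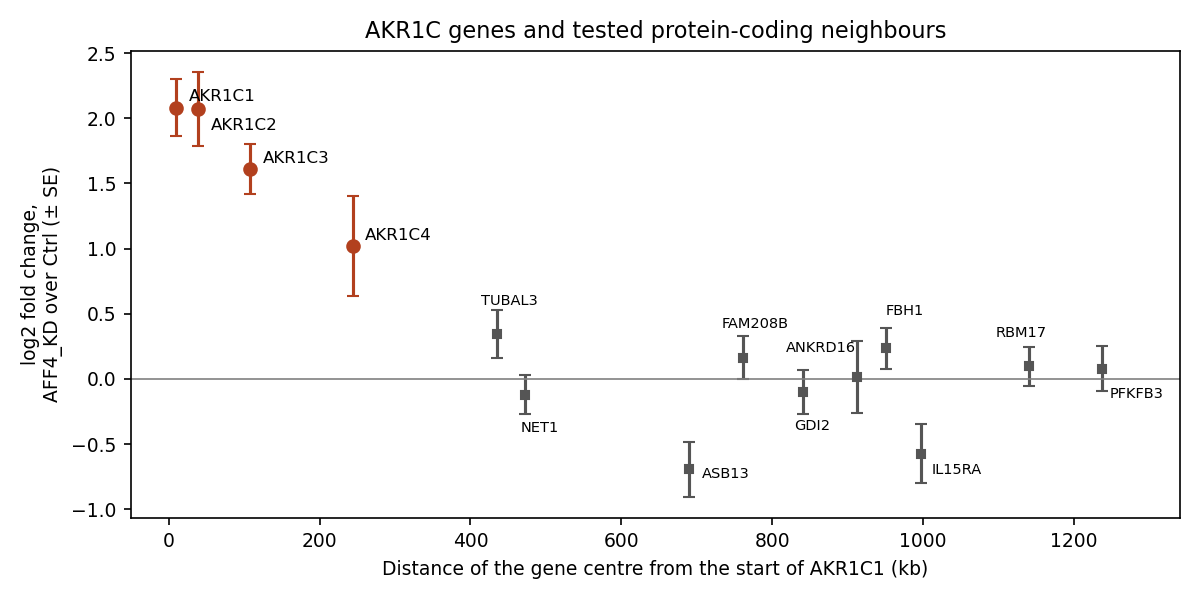
Log2 fold change of AFF4_KD over Ctrl with its standard error (y axis) against the distance of each gene's centre from the start of AKR1C1 in kb (x axis), for the 4 AKR1C genes (circles) and the 10 tested protein-coding neighbours (squares). The AKR1C values run from 2.08 to 1.02, and the neighbours lie between -0.69 and 0.34.

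Related gene groups, taken from lists, were examined beside the members. Of all 13572 tested genes, edgeR called 47 higher and 40 lower, and limma-voom 53 and 39. DESeq2 called 185 of 13162 higher and 211 lower. With so few calls among all genes, 0 calls in a short list say little. The share of all genes under 0.05 before adjustment is not given here. NRF2 targets other than the members numbered 25 tested of 27 listed. By edgeR 0 were called higher and 1 lower (2 higher and 3 lower before adjustment at 0.05), DESeq2 called 2 lower and limma-voom 1 lower. Of the 25, 8 had positive log2 fold changes, with a median log2 fold change of -0.13 beside -0.0089 over all tested genes. ABCC3, an organic anion export pump, was the gene that fell, at 7.36 ± 0.253 CPM in AFF4_KD and 35.4 ± 7.76 CPM in Ctrl (SD, n = 2 each). Its log2 fold change was -2.26 ± 0.23 (SE; adjusted p by edgeR = 0.0268, and 0.0573 with a stricter filter on low counts). SQSTM1, an autophagy receptor, and UGDH, which makes UDP-glucuronate, had log2 fold changes of -0.73 ± 0.18 and -0.62 ± 0.19 (SE; adjusted p by edgeR = 0.133 and 0.204). DESeq2 called SQSTM1 lower, with an adjusted p of 0.0311. NQO1, HMOX1 and GCLC are classical NRF2 targets, named after their values were seen. They differed in sign, and 17 of the 25 tested targets had negative log2 fold changes. NQO1, a quinone reductase, was at 3.90 ± 0.733 CPM in AFF4_KD and 4.92 ± 0.614 CPM in Ctrl, and HMOX1, which degrades haem, was at 4.54 ± 0.474 CPM in AFF4_KD and 5.49 ± 0.188 CPM in Ctrl. GCLC, the catalytic subunit of glutathione synthesis, was at 92.5 ± 0.602 CPM in AFF4_KD and 69.1 ± 8.86 CPM in Ctrl (SD, n = 2 each). Their edgeR adjusted p were 0.612, 0.645 and 0.286. With the GC trend removed, 4 of the list were called higher and 4 lower, beside 1936 and 1920 of 13162 tested genes. More of the list was also called with a Ctrl library left out, as among all tested genes.

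The regulators of this response were not called. Of 10 tested regulators and partners, 0 passed by edgeR (0 higher and 1 lower before adjustment at 0.05), and DESeq2 called 0 and limma-voom 0. Their median was -0.07. Some were called with a Ctrl library left out, as were many of all tested genes. NFE2L2, which encodes NRF2, was at 80.9 ± 3.82 CPM in AFF4_KD and 80.3 ± 12.5 CPM in Ctrl, and KEAP1, which targets NRF2 for degradation, at 146.1 ± 7.47 CPM in AFF4_KD and 155.4 ± 54.4 CPM in Ctrl (SD, n = 2 each). These 2 genes were named after their values were seen. The small MAF protein MAFF had a log2 fold change of -0.69 ± 0.25 and MAFK of -0.17 ± 0.29 (SE; adjusted p by edgeR = 0.262 and 0.869). Both depended on the Ctrl library: MAFF was at -0.96 without Ctrl 1 and -0.37 without Ctrl 2, and MAFK at -0.53 and 0.31.

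Of 4 other tested rows of the superfamily, 0 passed (by edgeR, with 0 higher and 1 lower before adjustment at 0.05; DESeq2 called 1 lower and limma-voom 0), and the median was -0.37. KCNAB1, a potassium channel subunit built on the aldo-keto reductase fold, had 136 and 106 counts in AFF4_KD, against 342 and 210 counts in Ctrl. Its log2 fold change was -1.23 ± 0.23 (SE), with an adjusted p of 0.0718 by edgeR and 0.00291 by DESeq2. KCNAB2 had -0.24 ± 0.20 (SE; adjusted p by edgeR = 0.666), which was -0.50 without Ctrl 1 and 0.07 without Ctrl 2.

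Carbonyl reductases of other families had a median of -0.02 over 17 tested genes and 0 that passed (by edgeR, with 1 higher and 2 lower before adjustment at 0.05; DESeq2 called 1 lower and limma-voom 0). The list counted here included PTGR1, a prostaglandin reductase, which had a log2 fold change of -0.92 ± 0.20 (SE), with an adjusted p of 0.0996 by edgeR and 0.0430 by DESeq2. Of 15 tested aldehyde dehydrogenases, which oxidise the aldehydes that aldo-keto reductases reduce, edgeR called 0 higher and 1 lower (2 higher and 5 lower before adjustment at 0.05), DESeq2 1 higher and 1 lower, and limma-voom 1 lower, with a median of -0.28. ALDH1L2, a mitochondrial folate enzyme, fell to 3.70 and 3.98 CPM in AFF4_KD, against 12.2 and 9.84 CPM in Ctrl (log2 fold change -1.52 ± 0.22; edgeR adjusted p = 0.0444). Its call was lost without AFF4_KD 1 (edgeR adjusted p = 0.332), without AFF4_KD 2 (0.224), with the stricter filter (0.0686) and with library-size scaling (0.0509). ALDH4A1 and the retinaldehyde dehydrogenase ALDH1A1 had log2 fold changes of 0.93 ± 0.28 and 0.85 ± 0.16 (SE; adjusted p by edgeR = 0.193 and 0.0788). DESeq2 called ALDH1A1 higher, with an adjusted p of 0.00249. ALDH4A1 was at 0.56 without Ctrl 1 and 1.40 without Ctrl 2.

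**Figure D5:**
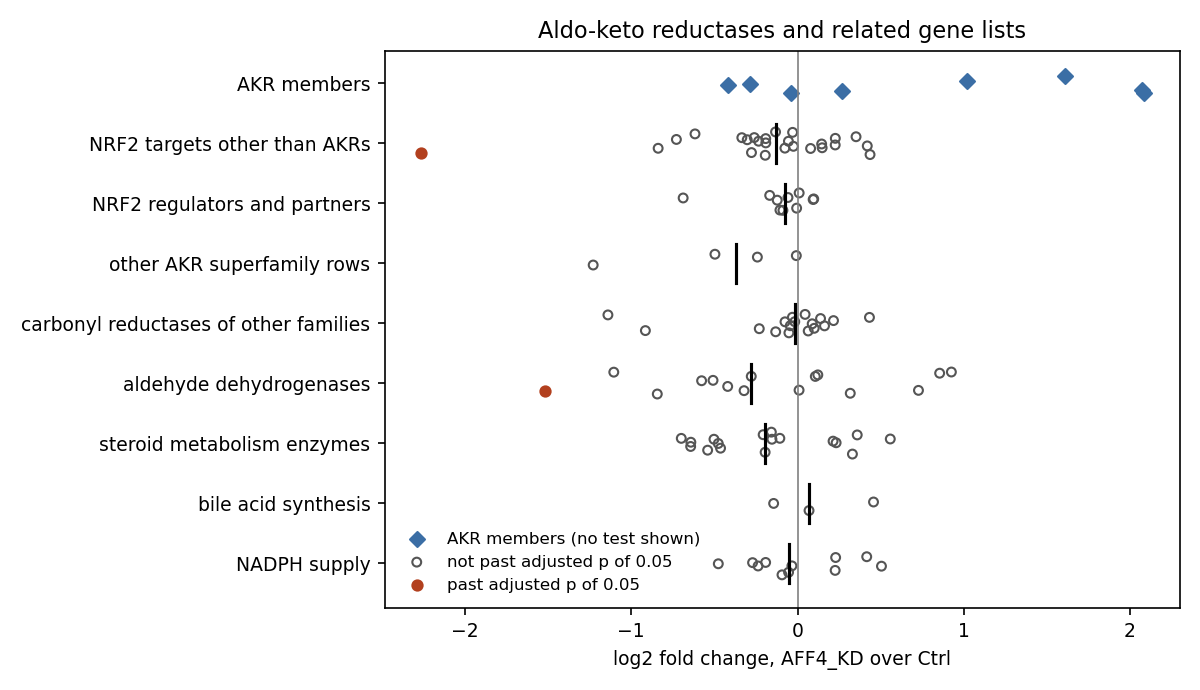
Log2 fold change of AFF4_KD over Ctrl (x axis) for the 8 tested aldo-keto reductases (diamonds, shown without a test) and for the tested genes of 8 related lists (circles, filled where the edgeR adjusted p is under 0.05); black ticks are list medians. Filled circles are ABCC3 among the NRF2 targets and ALDH1L2 among the aldehyde dehydrogenases, both at negative values.

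Part of the pathway that makes steroids, the substrates of the AKR1C enzymes, was expressed. NR5A1, STAR, CYP17A1 and HSD3B2 were named after their values were seen. NR5A1, a transcription factor of steroidogenic genes, was at 112.6 and 116.8 CPM in AFF4_KD, against 94.3 and 147.9 CPM in Ctrl. STAR, which carries cholesterol into mitochondria, was at 137.3 and 144.0 CPM in AFF4_KD, against 105.6 and 137.0 CPM in Ctrl. CYP11A1, which cleaves the cholesterol side chain, was at 61.4 and 66.5 CPM in AFF4_KD, against 91.1 and 108.6 CPM in Ctrl (log2 fold change -0.64 ± 0.16 SE; edgeR adjusted p = 0.134). CYP17A1 and HSD3B2, the following enzymes of the adrenal pathway, had 0 counts in AFF4_KD and at most 1 count in a Ctrl library. Of 17 tested steroid enzymes, 0 passed (by edgeR, with 0 higher and 3 lower before adjustment at 0.05; DESeq2 called 0 and limma-voom 0), with a median of -0.19. SRD5A1, which makes the dihydrotestosterone that AKR1C2 inactivates, had a log2 fold change of -0.70 ± 0.19 (SE; adjusted p by edgeR = 0.162). Bile acid synthesis, the pathway of AKR1D1 and AKR1C4, was largely silent: 4 of its 10 genes were at 0 in all libraries, 3 were tested and 0 passed (by edgeR, with 0 before adjustment at 0.05; DESeq2 called 0 and limma-voom 0). SLC27A5 was its most abundant gene, with a log2 fold change of -0.14 ± 0.30 (SE), which was -0.53 without Ctrl 1 and 0.38 without Ctrl 2. Of 11 tested genes that supply NADPH, 0 passed (by edgeR, with 0 higher and 1 lower before adjustment at 0.05; DESeq2 called 0 and limma-voom 0), with PGLS at 0.50 ± 0.30 and IDH2 at -0.48 ± 0.18 (log2 fold change ± SE). PGLS was at 0.10 without Ctrl 1 and 1.06 without Ctrl 2, and IDH2 at -0.69 and -0.23. The lists that had few or 0 calls had more with a Ctrl library left out. So did all tested genes, and these calls are therefore not particular to the lists.

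The genes outside the family whose profile over the 4 libraries was most like that of AKR1C1 were PSKH2, ISPD-AS1, C2orf66, FRMD4A and ART4, in this order, out of 10701 tested genes with a mean of at least 5 CPM. Likeness was the Euclidean distance between centred log2 CPM profiles, which was 0.206, 0.223, 0.247, 0.350 and 0.449. The distance of AKR1C2 to AKR1C1 was 0.391 and that of AKR1C3 was 0.469, so all but ART4 were nearer to AKR1C1 than AKR1C2 was. With 2 groups of 2 libraries, genes with a like group difference lie close together by construction. PSKH2 had 25.9 and 23.8 CPM in AFF4_KD, against 7.39 and 5.82 CPM in Ctrl. ISPD-AS1 is an antisense gene whose reads cannot be told apart from those of its partner without the strand setting of the counting.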

How the data were processed

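Poly(A) RNA was sequenced from 2 AFF4_KD and 2 Ctrl libraries of HEL cells. The deposited values were whole-number read counts per gene symbol. Per the submitters' processing notes, fastp 0.13.1, HISAT2 2.1.0 and featureCounts 1.6.1 were used with hg38; the sources used here do not name the annotation, the strand setting or how reads with several matches were handled. The 4 columns were matched by name, with 0 others present.

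Counts were filtered by filterByExpr (minimum count 10, total 15), scaled by TMM and fitted with the quasi-likelihood model of edgeR 4.0.16 in R 4.3.3, group as the only term, with Benjamini-Hochberg adjustment over 13572 genes; SE is the log2 fold change over the square root of F. Alternatives used DESeq2 1.42.0, limma 3.58.1, other scalings, filters and libraries. Gene models came from GENCODE 29, promoters from RefSeq, alignments from MAFFT 7.526. Members and lists were chosen with earlier results of these data known. Genes named from lists were those called plus the 2 largest uncalled changes at a mean of at least 5 CPM; any others are marked. The GC correction (lowess, span 0.4) covered 97.0% of tested genes.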

Additional observations from a re-analysis of the deposited data

How the results depend on the processing

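The signs of AKR1C1, AKR1C2, AKR1C3, AKR1C4, AKR1B1 and AKR7A2 were kept under every alternative that gave a value. On the log2 scale AKR1C1 lay between 2.00 and 2.18, AKR1C2 between 1.82 and 2.41 and AKR1C3 between 1.54 and 1.70. The AKR1C paralogs summed into a single row gave 1.79, which is no value of a single gene. AKR1A1 and AKR7A3 changed sign with the library left out. All genes called, 87 in the fit reported, numbered 734 with no filter, 5 with at least 5 CPM in 2 libraries, 396 in DESeq2, 888 with the replicate block, 3 at an adjusted p under 0.01, 3856 with the GC trend removed, and 46 to 6722 with 1 library left out. Members called higher, 3 as reported, were 0 with at least 5 CPM in 2 libraries, 0 at an adjusted p under 0.01, 1 (the sum) with the AKR1C paralogs summed, and 2 to 3 with 1 library left out. NRF2 targets called, 1 as reported, numbered 2 with no filter, in DESeq2 and with the replicate block, 0 with at least 5 CPM in 2 libraries and at an adjusted p under 0.01, 8 with the GC trend removed, and 1 to 15 with 1 library left out. With the GC trend removed, the members AKR1B1 and AKR7A2 were called lower, as were 1920 of 13162 tested genes in all. The causes were not tested. The replicate numbers are not stated to mark a shared batch; same-numbered libraries deviated together across genes (correlation 0.27), and 3 members were called higher with the replicate block. Without a Ctrl library, the lone Ctrl library was assumed to vary like the AFF4_KD libraries; 3 members, AKR1A1, AKR1B1 and AKR7A2, were then called lower without Ctrl 1 and 1 member without Ctrl 2. AKR1C4 and AKR7A3 gave no value with at least 5 CPM in 2 libraries. At 8 to 21 counts a library, their changes are poorly fixed.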
